A study of Mus musculus with 28 samples.

Results

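The genes described here are Spp1, Aebp1, Postn, Fn1, Tnc, Sparc, Lum, Dcn, Fbn1 and C1qtnf3, a set of 10 of the 50600 rows of the deposited RNA-seq table. Each was found by an exact match of its gene name, and each had 1 row. All 10 passed the filter on low values that 13230 genes passed. They had been selected on values of these same libraries. Spp1 and Aebp1 were among the genes most raised in p38i against pre-p38i on day 7, and C1qtnf3 was among the genes that fell most in pre-p38i against DMSO on day 3. Which comparison chose the other 7 is not recorded. Counts and differences are therefore a description, with no test, for those comparisons and for the day 7 comparisons that share their libraries, and an adjusted p-value elsewhere is not independent evidence that the set moves.

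RNA was sequenced from primary mouse embryonic fibroblasts (MEFs) of WT genotype, derived from mid-gestation embryos that carried the OG2 (Oct4-GFP) reporter, in 14 groups of 2 libraries. The groups are MEFs with no treatment, MEFs treated with the p38 inhibitor SB203580 (MEF p38i), and induced cells in the DMSO, p38i and pre-p38i conditions, each taken on days 1, 3, 5 and 7. Induced cells carried retroviral Sox2, Klf4 and Oct4, which act only in the cells that a retrovirus reached, and grew in the defined medium iCD1. In p38i the inhibitor was present during induction, in pre-p38i only before it, and DMSO cells had no inhibitor. Since DMSO is not named in the labels of MEFs with no treatment, solvent and inhibitor cannot be told apart in the comparison of the MEF groups. Nothing in the labels says that the libraries of a group came from separate cultures or embryos, so the p-values measure the spread between libraries, which may be technical.

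Fibroblasts build and maintain connective tissue by secreting collagens, glycoproteins and proteoglycans. Matricellular proteins are a class of these that bind the matrix and cell surface receptors and change how cells adhere and signal, rather than mainly bearing load. When fibroblasts are reprogrammed with pluripotency factors they lose mesenchymal features and gain epithelial ones early, and genes of the fibroblast matrix are among those that are shut down. The p38 MAP kinases transmit stress and cytokine signals.

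The table holds whole numbers, with library totals between 991287 and 992537, that are read as TPM, a measure of transcript abundance per length and per library, rounded down. TPM keeps no read number, so the depth of a library is unknown and no counting interval is given. Between 12454 and 14170 genes had a value of at least 1. Differences are given as log2(value + 1) and were tested with limma over all 13230 genes, with a call at a Benjamini-Hochberg adjusted p-value under 0.05. An exact permutation test of 2 libraries against 2 cannot give a p-value below 0.333, so each call rests on the spread that limma shares over genes and groups. Every group has 2 libraries, so a gene has the same standard error (SE) in each comparison of a pair of groups. It was 0.08 for Spp1, 0.06 for Aebp1, 0.09 for Postn, 0.05 for Fn1, 0.09 for Tnc, 0.04 for Sparc, 0.20 for Lum, 0.08 for Dcn, 0.05 for Fbn1 and 0.31 for C1qtnf3.

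Summed within each library and averaged over both libraries of a group, the 10 genes held 7862 in MEFs and 5917.5 in MEF p38i. The sum in DMSO was 5810.5 on day 1 and 2524.5 on day 7. On day 7 it was 3885.5 in p38i and 1204.5 in pre-p38i. The order pre-p38i, DMSO, p38i from low to high on day 7 belongs to the comparisons on which members were selected. In the same cultures the fibroblast markers, which include Col1a1, Col1a2 and Col3a1, summed to 9384 and 9277 in MEFs, 1597 and 1692 in DMSO on day 7, 1587 and 1623 in p38i on day 7, and 969 and 911 in pre-p38i on day 7. Of that list, Thy1, Pdgfra and Pdgfrb were detected in MEFs and Tcf21 was at 0 in every library. In bulk RNA, fewer fibroblasts and less RNA of a gene in each fibroblast cannot be told apart.

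**Figure D1:**
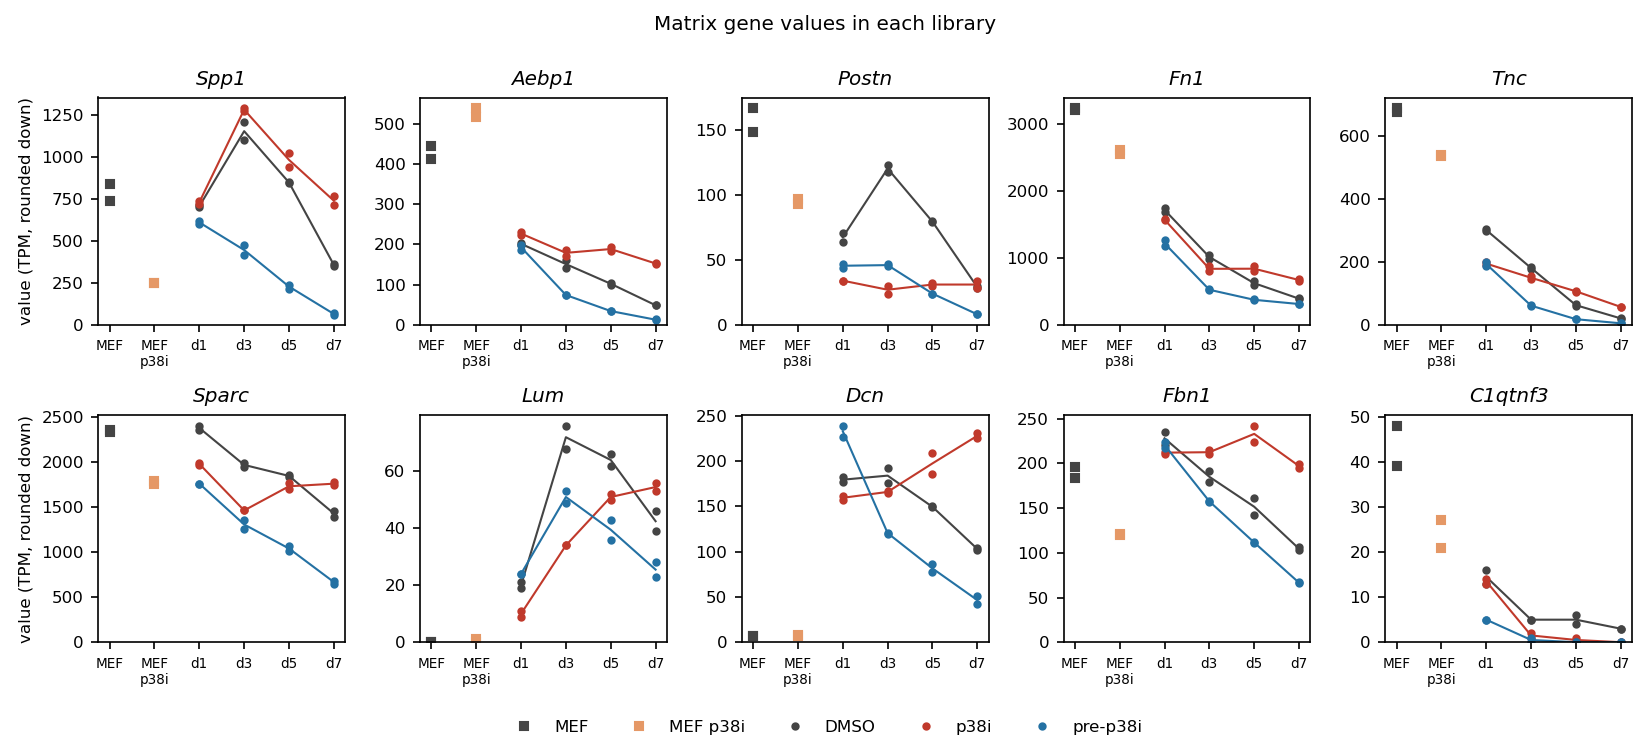
Value of each of the 10 genes (vertical axis, TPM rounded down, starting at 0 and scaled for each gene) in both MEF groups and over days 1 to 7 of induction. Squares and circles are single libraries and lines join the means of 2 libraries. Spp1 in p38i reached 1288 on day 3, while in pre-p38i it was at 57 and 71 on day 7. Lum and Dcn were near 0 in both MEF groups and not in induced cells.

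Promoter sequences are shown for the matrix genes whose RefSeq promoter held the letters of a TATA box. They let the start regions of Spp1, Postn, Tnc and C1qtnf3 be read beside their values. RefSeq (GRCm38.p6) gave a promoter of 300 bases, 250 before and 50 after the start, for 7 of the 10 genes. Fn1, Lum and Dcn were not matched. For Spp1, Postn and Tnc it gave a further promoter, and only the one nearest the deposited gene start was counted. The further promoters of Spp1 and Postn held no TATA box letters. The promoters used for Sparc and Fbn1 start 3103 and 1555 bases from the deposited gene start. Shares over all promoters count every promoter. Both strands were searched for the TATA box letters TATAAA, with no limit on their distance from the start. They were found in 4 of the 7 and in 13.6% of all 32851 promoters of this length. The E2 box, letters CACCTG, was found in 2 of the 7, Spp1 and Sparc, and in 20.2% of all promoters. The AP-1 motif, letters TGANTCA, was found in 0 of the 7 and in 7.81% of all promoters. A match is a run of letters and not a measured site. The 250 bases before the start of each are printed 5′ to 3′ on the strand of the gene, with the TATA box letters in capitals. In Spp1 the E2 box is in capitals too, which there reads from the other strand. Counted from the start, the TATA box letters begin at -26 in Postn, -6 in C1qtnf3, -126 in Tnc and -211 in Spp1.
Spp1 (chr5:104434861-104435110, plus strand): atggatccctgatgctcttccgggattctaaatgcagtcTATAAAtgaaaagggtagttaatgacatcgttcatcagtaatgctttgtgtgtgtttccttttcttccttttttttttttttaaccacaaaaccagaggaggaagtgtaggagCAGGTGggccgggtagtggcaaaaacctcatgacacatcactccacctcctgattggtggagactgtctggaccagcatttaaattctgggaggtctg
Postn (chr3:54360857-54361106, plus strand): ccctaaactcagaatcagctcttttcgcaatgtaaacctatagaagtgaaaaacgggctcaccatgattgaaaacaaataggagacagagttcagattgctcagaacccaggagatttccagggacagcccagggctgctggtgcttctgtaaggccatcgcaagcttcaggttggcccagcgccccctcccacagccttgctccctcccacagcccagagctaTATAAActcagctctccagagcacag
Tnc (chr4:64047016-64047265, minus strand): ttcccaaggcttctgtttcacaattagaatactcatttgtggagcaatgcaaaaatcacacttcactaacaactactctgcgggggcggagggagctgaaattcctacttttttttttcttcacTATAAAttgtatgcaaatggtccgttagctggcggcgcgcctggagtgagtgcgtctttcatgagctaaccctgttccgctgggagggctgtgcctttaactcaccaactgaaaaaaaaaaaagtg
C1qtnf3 (chr15:10952082-10952331, plus strand): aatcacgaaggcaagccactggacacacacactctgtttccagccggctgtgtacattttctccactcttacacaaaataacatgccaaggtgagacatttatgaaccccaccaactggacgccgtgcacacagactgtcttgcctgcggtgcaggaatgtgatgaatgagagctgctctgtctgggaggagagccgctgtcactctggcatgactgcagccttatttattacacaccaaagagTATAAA

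Spp1 encodes osteopontin, a secreted phosphoglycoprotein that binds integrins and is made by osteoblasts and macrophages as well as fibroblasts, and lies at chr5:104435118-104441050 on the plus strand. In MEFs its value was 736 and 836, and in MEF p38i it was 247 and 249. Spp1 in DMSO gave 698 and 712 for day 1, then 1206 and 1098, 844 and 849, and 351 and 361 for days 3, 5 and 7. It thus peaked on day 3 in DMSO, above both MEF libraries. Spp1 with p38i gave 720 and 737 for day 1, then 1288 and 1272, 939 and 1023, and 765 and 711 for days 3, 5 and 7. Spp1 after pre-p38i gave 620 and 598 for day 1, then 474 and 415, 239 and 215, and 57 and 71 for days 3, 5 and 7. The pre-p38i libraries had no peak on day 3 and lay below the DMSO libraries on each day. The highest group was p38i on day 3 and the lowest pre-p38i on day 7, and of neighbours in the order MEF overlapped with p38i day 7, and p38i day 7 with p38i day 1.

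Postn encodes periostin, a matricellular protein that binds integrins and collagen, and lies at chr3:54361109-54391037 on the plus strand. It was at 149 and 167 in MEFs and at 93 and 97 in MEF p38i. Postn in DMSO gave 71 and 64 for day 1, then 118 and 123, 79 and 80, and 28 and 30 for days 3, 5 and 7. As for Spp1, day 3 was the highest day within DMSO. Postn with p38i gave 34 and 34 for day 1, then 24 and 30, 32 and 30, and 28 and 34 for days 3, 5 and 7. Postn after pre-p38i gave 44 and 47 for day 1, then 47 and 45, 24 and 24, and 8 and 8 for days 3, 5 and 7. The p38i libraries stayed between 24 and 34 over all 4 days, below every DMSO library of days 1, 3 and 5 and overlapping with DMSO on day 7.

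Tnc encodes tenascin C, a matricellular glycoprotein of developing and wounded tissue that modulates adhesion, and lies at chr4:63959785-64047015 on the minus strand. It was at 687 and 676 in MEFs and at 537 and 538 in MEF p38i. Tnc in DMSO gave 303 and 298 for day 1, then 178 and 182, 58 and 66, and 18 and 22 for days 3, 5 and 7. Each step down exceeded the gap between the libraries of a day. Tnc with p38i gave 200 and 188 for day 1, then 154 and 144, 108 and 104, and 57 and 56 for days 3, 5 and 7. Tnc after pre-p38i gave 186 and 199 for day 1, then 58 and 63, 18 and 17, and 5 and 4 for days 3, 5 and 7. The p38i libraries lay below DMSO on days 1 and 3 and above it on days 5 and 7, without overlap.

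Sparc encodes a collagen-binding matricellular protein also called osteonectin, and lies at chr11:55394500-55423183 on the minus strand. It was at 2361 and 2330 in MEFs and at 1793 and 1754 in MEF p38i. Sparc in DMSO gave 2403 and 2355 for day 1, then 1993 and 1945, 1831 and 1862, and 1396 and 1462 for days 3, 5 and 7. Its level in DMSO on day 1 overlapped with MEFs, and its fall to day 7 was slight beside that of Tnc. Sparc with p38i gave 1973 and 1987 for day 1, then 1463 and 1464, 1696 and 1767, and 1776 and 1745 for days 3, 5 and 7. Sparc after pre-p38i gave 1762 and 1760 for day 1, then 1260 and 1355, 1064 and 1017, and 685 and 651 for days 3, 5 and 7. The p38i libraries were lowest on day 3 and higher again on days 5 and 7, and the pre-p38i libraries were lower on each later day.

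Fn1 encodes fibronectin, the fibrillar glycoprotein through which integrins hold cells to the matrix, and lies at chr1:71585520-71653200 on the minus strand. It was at 3232 and 3212 in MEFs, the highest of the 10 genes there on this per-length scale, and at 2549 and 2616 in MEF p38i. Fn1 in DMSO gave 1745 and 1685 for day 1, then 1041 and 982, 591 and 649, and 383 and 395 for days 3, 5 and 7. The order of days held without overlap. Fn1 with p38i gave 1562 and 1577 for day 1, then 874 and 796, 873 and 800, and 677 and 658 for days 3, 5 and 7. Fn1 after pre-p38i gave 1171 and 1259 for day 1, then 530 and 514, 367 and 377, and 305 and 313 for days 3, 5 and 7. Between days 3 and 5 the DMSO libraries did not overlap, the later ones being lower, and the p38i libraries overlapped.

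Fbn1 encodes fibrillin 1, the main protein of the microfibrils of elastic tissue, and lies at chr2:125300594-125507993 on the minus strand. It was at 196 and 184 in MEFs and at 120 and 121 in MEF p38i. Fbn1 in DMSO gave 235 and 221 for day 1, then 191 and 179, 142 and 161, and 103 and 106 for days 3, 5 and 7. Fbn1 with p38i gave 211 and 213 for day 1, then 215 and 210, 242 and 224, and 195 and 199 for days 3, 5 and 7. Its highest group mean was that of p38i on day 5, which overlapped with DMSO on day 1. Fbn1 after pre-p38i gave 217 and 224 for day 1, then 158 and 157, 112 and 111, and 67 and 66 for days 3, 5 and 7. The 3 conditions were close on day 1 and did not overlap on days 3, 5 and 7. Fbn1 shares 2442 exon bases with Gm9913 on the other strand, the only near-identical gene found for a member, and Gm9913 was at 3 or less in every library.

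Lum encodes lumican and Dcn encodes decorin, small leucine-rich proteoglycans that bind collagen fibrils and set their spacing, and the genes are neighbours on the plus strand. Lum lies at chr10:97565128-97572703 and Dcn at chr10:97479609-97518143. Both were low in MEFs, where Lum was listed at 0 and 0 and Dcn was at 7 and 7, and in MEF p38i, where Lum was at 1 and 0 and Dcn at 8 and 7. Every induced library exceeded these values for both genes.

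Lum in DMSO gave 19 and 21 for day 1, then 68 and 76, 62 and 66, and 39 and 46 for days 3, 5 and 7. Lum with p38i gave 9 and 11 for day 1, then 34 and 34, 50 and 52, and 56 and 53 for days 3, 5 and 7. The p38i libraries were thus below DMSO up to day 5 and above it on day 7, and they were highest on day 7 where DMSO was highest on day 3. Lum after pre-p38i gave 24 and 24 for day 1, then 53 and 49, 43 and 36, and 23 and 28 for days 3, 5 and 7.

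Dcn in DMSO gave 177 and 182 for day 1, then 176 and 192, 149 and 150, and 104 and 102 for days 3, 5 and 7. Dcn with p38i gave 157 and 162 for day 1, then 167 and 165, 186 and 209, and 225 and 231 for days 3, 5 and 7. Values in p38i were higher on day 7 than on any earlier day, and those in DMSO were lowest on day 7. Dcn after pre-p38i gave 239 and 227 for day 1, then 121 and 120, 86 and 77, and 51 and 42 for days 3, 5 and 7. Dcn was the only one of the 10 genes whose highest group mean was that of pre-p38i on day 1, which overlapped with p38i on day 7.

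Aebp1 encodes a secreted collagen-binding protein, also called ACLP, that takes part in collagen fibril assembly, and lies at chr11:5861947-5872088 on the plus strand. It was at 444 and 413 in MEFs and at 518 and 539 in MEF p38i, its highest group. Aebp1 in DMSO gave 204 and 199 for day 1, then 160 and 142, 99 and 105, and 49 and 48 for days 3, 5 and 7. Aebp1 with p38i gave 231 and 223 for day 1, then 186 and 172, 193 and 184, and 153 and 152 for days 3, 5 and 7. The p38i libraries lay above the DMSO libraries on each day, and those of days 3 and 5 overlapped with each other. Aebp1 after pre-p38i gave 187 and 199 for day 1, then 73 and 75, 34 and 34, and 13 and 12 for days 3, 5 and 7.

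C1qtnf3 encodes CTRP3, a secreted protein with a C1q-like domain, and lies at chr15:10952332-10980150 on the plus strand. It was at 39 and 48 in MEFs and at 27 and 21 in MEF p38i. C1qtnf3 in DMSO gave 16 and 13 for day 1, then 5 and 5, 6 and 4, and 3 and 3 for days 3, 5 and 7. C1qtnf3 with p38i gave 14 and 13 for day 1, then 1 and 2, 0 and 1, and 0 and 0 for days 3, 5 and 7. It was the lowest of the 10 genes in induced cells after day 1. C1qtnf3 after pre-p38i gave 5 and 5 for day 1, 0 and 1 for day 3, and 0 in both libraries of days 5 and 7. No fold is given against a group listed at 0, and with values rounded down a listed 0 can be any value under 1.

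MEFs with and without the inhibitor were compared to ask how the genes responded before any reprogramming factor was given. With the inhibitor 6 of the 10 genes fell and 1 rose, where 8.15% of all genes tested were lower and 9.73% higher. The median difference of the 10 genes was -0.37 against 0 over all genes. Spp1 had the largest difference and was 3.15-fold lower (log2 difference -1.66, limma adjusted p = 4.61e-11). Postn fell by 0.73 (limma adjusted p = 1.59e-05) and Fbn1 by 0.65 (adjusted p = 5.73e-08). Sparc fell by 0.40 (limma adjusted p = 3.4e-07) and Fn1 fell by 0.32 (adjusted p = 0.00026). Tnc fell by 0.34 (limma adjusted p = 0.0085), a call that was lost without MEF replicate 1 or MEF p38i replicate 1, with an adjusted p-value of at most 0.0549. Aebp1 was the gene that rose, by 0.30 (limma adjusted p = 0.00127), though its adjusted p-value was 0.102 when only the MEF libraries were fitted, a fit in which the call of Postn was also lost (0.0568). Dcn differed by 0.08 (limma adjusted p = 0.532) and C1qtnf3 by -0.83 (adjusted p = 0.066). In both MEF groups Lum was at 1 or less, and it was called only without MEF p38i replicate 2, when the remaining values were 1 against 0 and 0.

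Spp1 is made by macrophages and osteoblasts too, so markers of these and of fibroblasts were summed in both MEF groups. The 16 macrophage markers summed to 372 and 352 in MEFs and to 244 and 248 in MEF p38i. Of the 13 tested, 8 were lower in MEF p38i and 0 higher. Csf1r went from 15 and 13 to 5 and 5, and Cx3cr1 from 6 and 5 to 0 and 0. The fibroblast markers summed to 9384 and 9277 in MEFs and 5754 and 5739 in MEF p38i, with 5 of the 11 tested lower and 1 higher. The osteoblast and chondrocyte markers summed to 240 and 225 in MEFs and 441 and 437 in MEF p38i. Of the 4 tested, 1 was higher, namely Col2a1 by 1.01 (limma adjusted p = 4.61e-08), and 0 lower. The part of these lists in the differences of Spp1 and the other genes was not tested.

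The control induction was followed to ask how the genes behave when fibroblasts are reprogrammed without the inhibitor. MEFs and DMSO day 1 also differ in medium, retroviral infection, solvent and time in culture. In that comparison these cannot be told apart from the factors. From MEFs to DMSO day 1, 5 of the 10 genes fell and 3 rose, where 18.9% of all genes tested were lower and 36.6% higher. The genes that fell were Aebp1 by 1.08 (limma adjusted p = 5.45e-12), Tnc by 1.18 (4.26e-10), Postn by 1.21 (1.02e-09), Fn1 by 0.91 (1.34e-11) and C1qtnf3 by 1.52 (0.000276). Dcn rose by 4.50 (limma adjusted p = 6.63e-20), Fbn1 rose by 0.26 (adjusted p = 0.000422), and Lum rose from a group listed at 0. Sparc differed by 0.02 (limma adjusted p = 0.691) and Spp1 by -0.15 (adjusted p = 0.132, and 0.0496 without MEF replicate 1). The median over all genes was 0.14 here, and quantile normalization moved the share of higher genes among all calls from 65.9% to 47.5% and put Sparc among the called genes. The call of C1qtnf3 was lost with a pseudocount of 0.1, and that of Fbn1 when only these groups were fitted (0.0556).

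From day 1 to day 7 in DMSO, 9 of the 10 genes fell and Lum rose, where 26.1% of all genes tested were lower and 28.4% higher. The median difference of the 10 genes was -1.15 against 0.03 over all genes. Tnc had the largest change and fell by 3.85 (limma adjusted p = 1.13e-17). Fn1 fell by 2.14 (limma adjusted p = 4.65e-17), Aebp1 by 2.03 (5.19e-16) and C1qtnf3 by 1.95 (2.06e-05). Postn fell by 1.19 (limma adjusted p = 1.79e-09), Fbn1 by 1.12 (1.28e-12), Spp1 by 0.98 (6.11e-09), Dcn by 0.80 (4.73e-08) and Sparc by 0.74 (3.48e-12). Lum was higher on day 7 by 1.05 (limma adjusted p = 0.000157, and 0.141 with a pseudocount of 0.1). Over the same days the epithelial markers went from sums of 36 and 41 to 514 and 486, and 7 of the 7 tested rose.

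Cells with the inhibitor present during induction were compared with DMSO on each day to ask what inhibition in that window does. On day 1, 4 of the 10 genes fell and 0 rose, where 12.6% of all genes tested were lower and 3.47% higher. Postn fell by 0.97 (limma adjusted p = 6.54e-07), Lum by 0.94 (0.00248), Tnc by 0.63 (3.81e-05) and Sparc by 0.26 (7.31e-05). Spp1, Aebp1, Fn1, Dcn, Fbn1 and C1qtnf3 were not called, with differences between -0.17 for Dcn and 0.17 for Aebp1. The call of Lum was lost with a pseudocount of 0.1 and when only the groups compared were fitted, where its adjusted p-value reached 0.301. With quantile normalization the share of higher genes among all calls was 41.1% against 21.6%, and Aebp1 and Fn1 were called too.

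On day 3, 6 of the 10 genes were lower in p38i and 2 higher, where 16.2% of all genes tested were lower and 5.22% higher. Postn fell by 2.13 (limma adjusted p = 2.17e-11), Lum by 1.06 (0.000604), Sparc by 0.43 (1.17e-07), Fn1 by 0.28 (0.00079) and Tnc by 0.27 (0.029). Aebp1 rose by 0.25 (limma adjusted p = 0.00568) and Fbn1 by 0.20 (0.0125). C1qtnf3 differed by -1.29, which is a description since the DMSO libraries of day 3 served to choose it. The call of Lum was lost with a pseudocount of 0.1 (limma adjusted p = 0.232). That of Fn1 was lost when only the groups compared were fitted (limma adjusted p = 0.138). The calls of Aebp1 and Fbn1 were lost without DMSO day 3 replicate 2 or p38i day 3 replicate 1, that of C1qtnf3 without the latter, and that of Tnc without any of the 4 libraries. Of the 10 genes, 5 and 4 were called without those libraries and 3 when only the groups compared were fitted. Over all genes 690 were higher and 2143 lower, and quantile normalization gave 1407 of each.

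On day 5, 5 of the 10 genes were higher in p38i and 2 lower, where 7.87% of all genes tested were higher and 18.7% lower. Aebp1 rose by 0.88 (limma adjusted p = 2.83e-09), Tnc by 0.77 (1.82e-06), Fbn1 by 0.62 (1e-07), Fn1 by 0.43 (5.72e-06) and Dcn by 0.40 (0.000858). Postn fell by 1.33 (limma adjusted p = 4.46e-09) and C1qtnf3 fell by 2.06 (4.71e-05). Spp1 differed by 0.21 (limma adjusted p = 0.0727), Sparc by -0.09 (0.0837) and Lum by -0.32 (0.255). When only the groups compared were fitted the count of called genes was 3, with the calls of Fbn1, Fn1, Dcn and C1qtnf3 lost. Quantile normalization gave 52.7% of all calls as higher against 29.6% and added Spp1 and Sparc to the called genes.

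The change between day 1 and day 5 was tested as the difference of the differences. The p38i effect moved up for 5 of the 10 genes and down for 1, where 3.49% of all genes tested moved up and 4.01% down. Tnc moved by 1.40 (SE 0.12, limma adjusted p = 3.3e-07), from lower than DMSO on day 1 to higher on day 5. Fbn1 moved by 0.72 (SE 0.08, limma adjusted p = 5.04e-06), Aebp1 by 0.71 (SE 0.08, 1.9e-05), Dcn by 0.57 (SE 0.11, 0.00287) and Fn1 by 0.56 (SE 0.08, 7.36e-05). C1qtnf3 moved by -1.97 (SE 0.43, limma adjusted p = 0.0067), a call lost with a pseudocount of 0.1 or only the groups compared. Spp1, Postn, Sparc and Lum were not called, with values of 0.16, -0.36, 0.17 and 0.62.

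On day 7, 7 of the 10 genes were higher in p38i and 1 lower, where 16.5% of all genes tested were higher and 17.6% lower, and since the libraries of this day served in the choice these values are a description. The differences were 1.63 for Aebp1, 1.46 for Tnc, 1.14 for Dcn, 1.05 for Spp1, 0.91 for Fbn1, 0.78 for Fn1 and 0.30 for Sparc. Lum at 0.36 and Postn at 0.09 did not pass the threshold, and C1qtnf3 was listed at 0 in p38i. For Postn the day 7 libraries of p38i and DMSO overlapped, after no overlap on the earlier days.

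**Figure D2:**
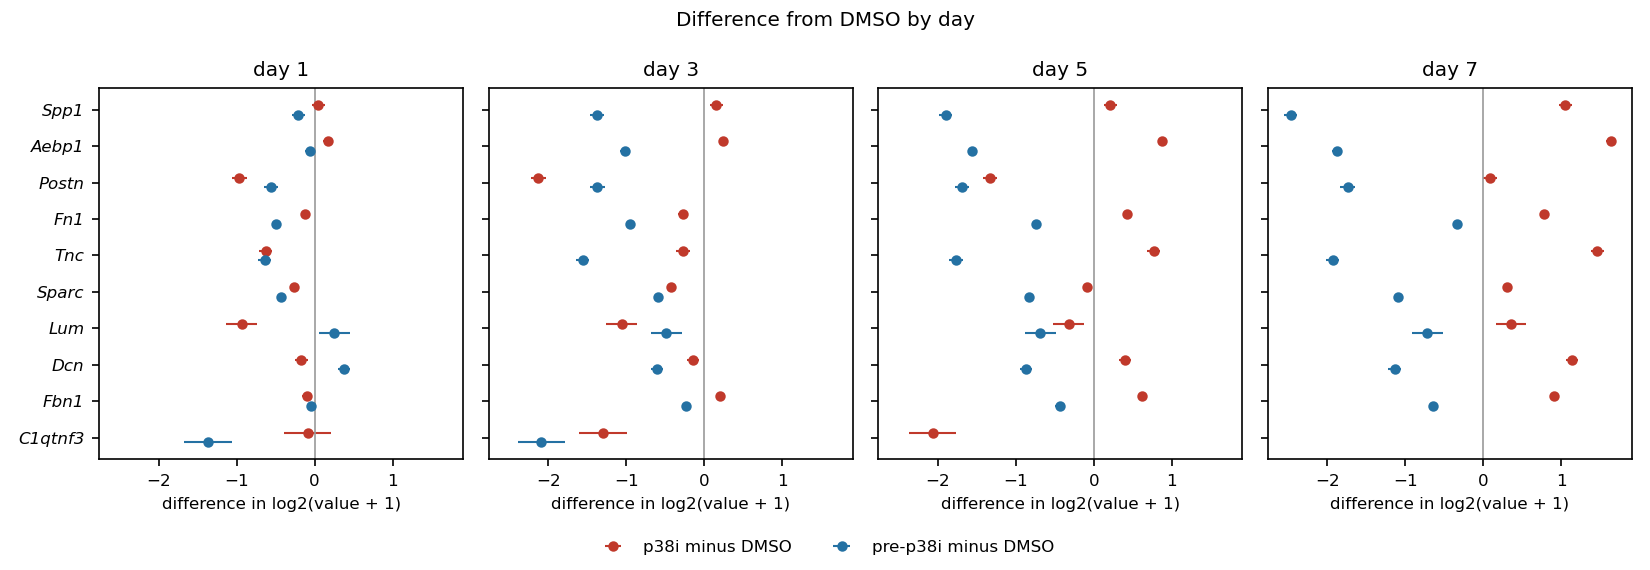
Difference in log2(value + 1) between p38i and DMSO and between pre-p38i and DMSO (horizontal axis, SE as bars, groups of 2 libraries) for each gene on days 1, 3, 5 and 7. Pairs with a group listed at 0 are left out, which removes C1qtnf3 from pre-p38i on days 5 and 7 and from p38i on day 7. Points for Tnc in p38i go from -0.63 on day 1 to 1.46 on day 7.

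Cells given the inhibitor only before induction were compared with DMSO to ask what remains after it is taken away. On day 1, 5 of the 10 genes were lower and 1 higher, where 6.24% of all genes tested were lower and 5.4% higher. Tnc fell by 0.64 (limma adjusted p = 5.55e-05), Postn by 0.56 (0.000585), Fn1 by 0.50 (4.12e-06), Sparc by 0.43 (4.3e-07) and C1qtnf3 by 1.36 (0.00611). Dcn rose by 0.37 (limma adjusted p = 0.00378). Spp1 differed by -0.21 (limma adjusted p = 0.121), Lum by 0.25 (0.481), Aebp1 by -0.06 (0.589) and Fbn1 by -0.05 (0.668). When only the groups compared were fitted, 2 genes were called, and C1qtnf3 lost its call also without DMSO day 1 replicate 1.

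On day 3, 9 of the 10 genes were lower in pre-p38i and 0 higher, where 6.87% of all genes tested were lower and 13.8% higher, and these values too are a description. The differences were -2.08 for C1qtnf3, -1.56 for Tnc, -1.37 for Spp1, -1.37 for Postn, -1.02 for Aebp1, -0.95 for Fn1, -0.61 for Dcn, -0.59 for Sparc and -0.23 for Fbn1. Lum, at -0.49, did not pass the threshold, and Fbn1 did not without DMSO day 3 replicate 1. The share of higher genes among all calls was 66.7% here and 50.7% with quantile normalization.

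On day 5 all 10 genes were lower in pre-p38i than in DMSO and 0 higher, where 11.3% of all genes tested were lower and 14.3% higher. The median difference of the 10 genes was -1.21 against 0.04 over all genes. Spp1 fell by 1.90 (limma adjusted p = 6.03e-12), Tnc by 1.77 (2.24e-11), Postn by 1.69 (1.65e-10) and Aebp1 by 1.56 (8.42e-13). Dcn fell by 0.87 (limma adjusted p = 1.38e-07), Sparc by 0.83 (1.14e-11), Fn1 by 0.73 (7.26e-09), Lum by 0.69 (0.0144) and Fbn1 by 0.44 (7.33e-06). C1qtnf3 was listed at 0 in both pre-p38i libraries against 6 and 4 in DMSO (limma adjusted p = 3.9e-06). The call of Lum was lost without DMSO day 5 replicate 2 or pre-p38i day 5 replicate 2, with a pseudocount of 0.1 and when only the groups compared were fitted, and in the last fit that of Fbn1 was lost too (0.0797).

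Between day 1 and day 5 the pre-p38i effect moved down for 9 of the 10 genes and up for 0, where 5.36% of all genes tested moved down and 6.4% up. Spp1 moved by -1.69 (SE 0.12, limma adjusted p = 3.38e-08), Aebp1 by -1.49 (SE 0.08, 4.72e-09), Dcn by -1.24 (SE 0.11, 5.76e-07), Postn by -1.13 (SE 0.13, 1.57e-05) and Tnc by -1.12 (SE 0.12, 5.59e-06). Sparc moved by -0.39 (SE 0.05, limma adjusted p = 8.48e-05) and Fbn1 by -0.39 (SE 0.08, 0.00253, and 0.0706 when only the groups compared were fitted). For Lum (-0.94, SE 0.28, limma adjusted p = 0.0334) and Fn1 (-0.24, SE 0.08, 0.0473) most of the alternatives tried lost the call. C1qtnf3 moved by -1.20 (SE 0.43, limma adjusted p = 0.0801). Among all calls 54.4% were up, and 44.0% with quantile normalization.

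On day 7 all 10 genes were lower in pre-p38i than in DMSO, where 14.5% of all genes tested were lower and 15.4% higher, again as a description. The differences were -2.47 for Spp1, -1.93 for Tnc, -1.88 for Aebp1, -1.74 for Postn, -1.14 for Dcn, -1.10 for Sparc, -0.72 for Lum, -0.64 for Fbn1 and -0.33 for Fn1. In pre-p38i C1qtnf3 was listed at 0 again. Lum did not pass the threshold without DMSO day 7 replicate 2 or pre-p38i day 7 replicate 1.

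The timing of the inhibitor was compared directly on day 5. The level was higher in p38i than in pre-p38i for 8 of the 10 genes and lower for 0, where 16.3% of all genes tested were higher and 31.1% lower. The median difference was 1.11 for the 10 genes and -0.12 for all genes. Tnc differed by 2.53 (limma adjusted p = 3.06e-14), Aebp1 by 2.44 (2.62e-16) and Spp1 by 2.11 (3.19e-13). Dcn differed by 1.27 (limma adjusted p = 1.53e-10), Fn1 by 1.17 (2.06e-12), Fbn1 by 1.06 (1.17e-11), Sparc by 0.73 (1.3e-11) and Postn by 0.36 (0.00418). Lum differed by 0.37 (limma adjusted p = 0.139), and C1qtnf3 was at 0 and 1 in p38i against 0 and 0, with a call only without p38i day 5 replicate 1. Quantile normalization gave 52.9% of all calls as higher against 34.4% and brought Lum under the threshold.

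On day 7 the level was higher in p38i for 9 of the 10 genes and lower for 0, where 24.8% of all genes tested were higher and 29.5% lower. This is the comparison on which Spp1 and Aebp1 were selected. The differences were 3.51 for Spp1, 3.51 for Aebp1, 3.39 for Tnc, 2.28 for Dcn, 1.82 for Postn, 1.55 for Fbn1, 1.40 for Sparc, 1.11 for Fn1 and 1.07 for Lum. C1qtnf3 was listed at 0 in all 4 libraries.

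Cell type markers moved with the conditions on day 5. The fibroblast markers summed to 2421 and 2727 in DMSO, 1832 and 1799 in p38i and 1735 and 1603 in pre-p38i. Of the 11 tested, 8 were lower and 1 higher in p38i against DMSO, where Aebp1, Tnc, Fn1, Dcn and Fbn1 were called higher, and 9 were lower and 0 higher in pre-p38i against DMSO. The macrophage markers summed to 601 and 608 in DMSO, 291 and 288 in p38i and 185 and 176 in pre-p38i. Of the 13 tested, 10 were lower and 1 higher in p38i against DMSO, and 13 were lower in pre-p38i against DMSO. Spp1 on day 5 was at 939 and 1023 in p38i, 239 and 215 in pre-p38i and 844 and 849 in DMSO. Between p38i and DMSO it was called only with quantile normalization (limma adjusted p = 0.0727 without it). On day 1 the macrophage markers summed to 118 and 112 in pre-p38i against 311 and 301 in DMSO. Spp1 was not called between those groups (log2 difference -0.21, limma adjusted p = 0.121). Its libraries did not overlap, at 620 and 598 against 698 and 712. On day 3 the macrophage sums were 242 and 229 in pre-p38i against 543 and 544 in DMSO. Spp1 was then at 474 and 415 against 1206 and 1098. On day 7 these sums were 125 and 117 against 385 and 394. Spp1 was then at 57 and 71 against 351 and 361. The values of days 3 and 7 are a description. Among genes of the macrophage list, Cx3cr1 was at 0 in all induced libraries, Ptprc and Aif1 at 2 or less, Csf1r at 4 or less and Adgre1 between 1 and 14. The other genes of that list made up most of its sums. On day 5 the epithelial markers summed to 156 and 146 in DMSO, 84 and 81 in p38i and 370 and 349 in pre-p38i. This was the reverse of the order of Aebp1, Tnc, Fn1, Dcn and Fbn1. The osteoblast and chondrocyte markers summed to 154 and 160 in DMSO, 119 and 104 in p38i and 225 and 205 in pre-p38i. Sp7, Bglap and Ibsp were under the filter, and the 4 genes tested did not move together. From day 1 to day 7 in DMSO, Alpl rose by 6.89 (limma adjusted p = 2.83e-14) and Col2a1 by 0.96 (7.38e-09). Over the same days Runx2 fell by 2.23 (limma adjusted p = 5.25e-06). The endothelial markers summed to between 59 and 70. The part of these markers in the differences of the 10 genes was not tested.

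**Figure D3:**
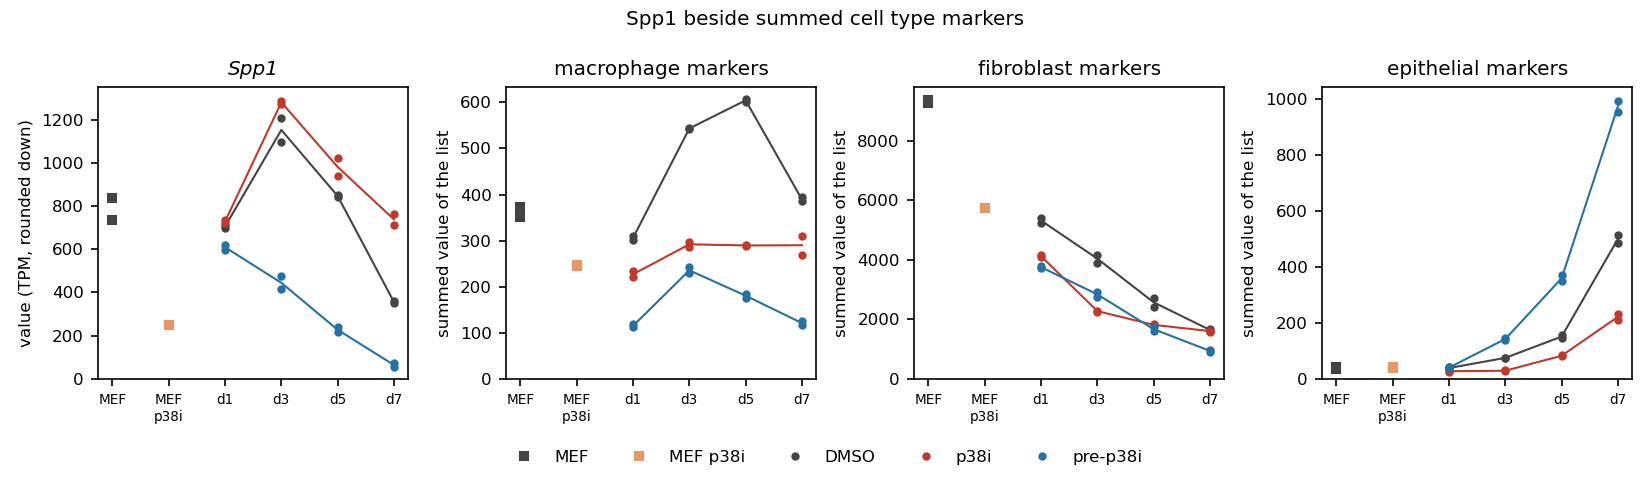
Value of Spp1 and summed values of the macrophage, fibroblast and epithelial marker lists (vertical axes, TPM rounded down, starting at 0) in MEFs, MEF p38i and induced cells by day. Each point is a library and lines join the means of 2. On day 5 the macrophage sum was 291 and 288 in p38i and 601 and 608 in DMSO. Spp1 was at 939 and 1023 in p38i and 844 and 849 in DMSO, a difference called only with quantile normalization.

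Other matrix genes were counted in lists by role for the day 5 comparisons. In p38i against DMSO, where 18.7% of all genes tested were lower and 7.87% higher, 3 of 5 tested small leucine-rich proteoglycans were lower and 0 higher, with a median of -0.72. These were Aspn at -1 (limma adjusted p = 0.0224), Bgn at -0.97 (2.94e-09) and Ogn at -0.72 (0.00277). Bgn, which encodes biglycan, the closest relative of decorin, was at 152 and 137 in p38i against 277 and 291 in DMSO, while Dcn was higher in p38i. All genes of this list summed to 163 and 147 in p38i and 294 and 308 in DMSO. Aspn and Ogn were thus low, where the rounding of the deposited values weighs more. Of 9 other matricellular genes 2 were lower and 0 higher, namely Tnr at -1.70 (limma adjusted p = 8.19e-05) and Thbs1, encoding thrombospondin 1, at -0.73 (8.97e-08).

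Of 15 elastic fibre and microfibril genes 3 were higher and 3 lower in p38i on day 5, with Ltbp2 at -1.23 (limma adjusted p = 0.000657) and Eln, which encodes elastin, at 1.00 (0.0285). Of 15 crosslinking and collagen processing enzymes 1 was higher and 4 lower, with P4ha3 at -1.03 (limma adjusted p = 0.00758), Loxl4 at -0.74 (3.17e-06) and Loxl2, a lysyl oxidase like Loxl4, at 0.52 (1.35e-05). Of 11 matrix receptors 0 were higher and 3 lower, namely Itga4 at -0.70 (limma adjusted p = 0.000135), Itgb5 at -0.29 (0.0015) and Cd44 at -0.27 (0.000148). Apart from the small leucine-rich proteoglycans, the shares of these lists called lower lay near that of all genes.

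In pre-p38i against DMSO on day 5, where 11.3% of all genes tested were lower and 14.3% higher, the genes counted lower were 3 of 5 small leucine-rich proteoglycans, 2 of 9 other matricellular genes, 9 of 15 elastic fibre genes, 11 of 15 enzymes and 8 of 11 receptors. Those counted higher were 2 of the elastic fibre list, Eln among them, and 0 of the other lists. The leading genes of the lists were Ltbp2, which fell by 1.73 (limma adjusted p = 1.87e-05), Thbs1, which fell by 1.60 (1.2e-12), Bgn, which fell by 1.54 (4.19e-12), P4ha2, which fell by 1.13 (5.39e-06), and Itgb3, which fell by 0.66 (0.00857). The medians of these lists, in the same order, were -1, -0.08, -0.42, -0.37 and -0.49, beside -1.21 for the 10 genes and 0.04 for all genes. The first is a median of 5 genes that, apart from Bgn, were low.

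**Figure D4:**
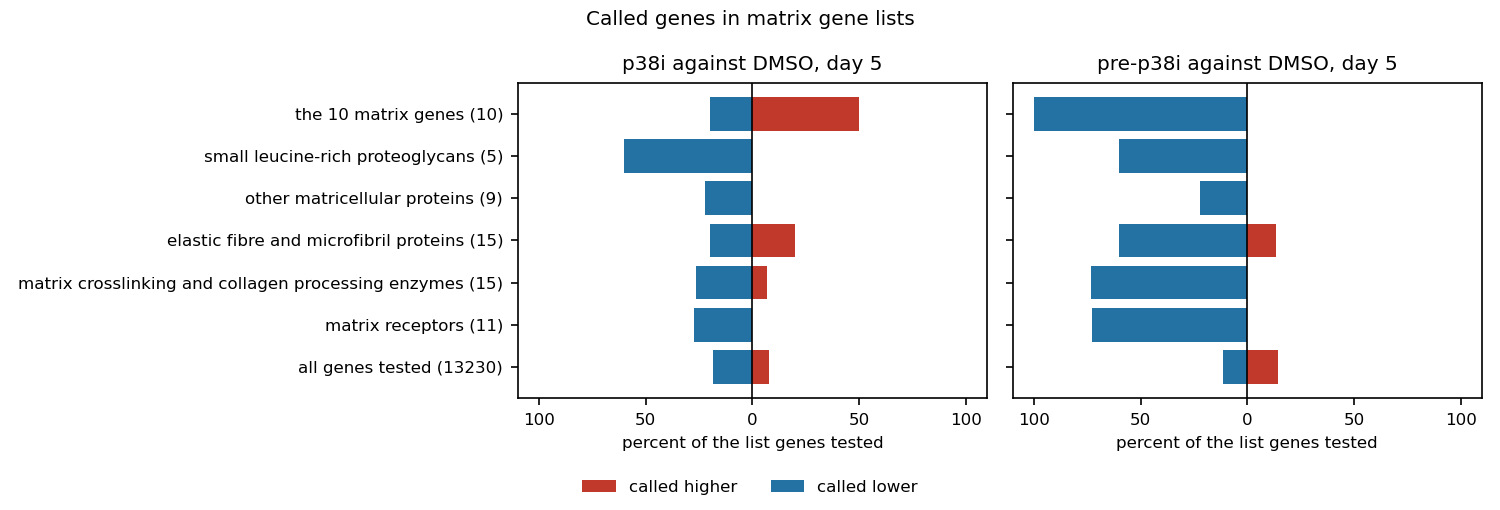
Percent of the tested genes of each list called higher (right, red) and lower (left, blue) on day 5, for p38i against DMSO and for pre-p38i against DMSO, with the number tested in brackets. In p38i 5 of the 10 matrix genes were called higher and 2 lower, and in pre-p38i all 10 were called lower.

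Over the 14 group means, the 10 genes did not share a single pattern. Correlations are a description with no test, since the groups share days and conditions. The lowest Pearson correlation between members was -0.76 for Fn1 and Lum, followed by -0.76 for Lum and C1qtnf3 and -0.60 for Tnc and Lum. Each negative correlation involved Lum or Dcn, which were low in both MEF groups. Among the other members the correlations ran from 0.28 for Spp1 and C1qtnf3 to 0.97 for Aebp1 and Tnc. Outside the set, the genes whose 14 group means were most like those of a member were Kdelr3 and Clip2 for Fn1 (0.99 and 0.99), Cobl for Lum (0.995) and Ikbip and Cttnbp2nl for Tnc (0.99 and 0.98). They were Copz2 and Ergic1 for Aebp1 (0.98 and 0.98), Cyp2j6 and Gm10369 for Dcn (0.99 and 0.99) and Blcap and Rras for Fbn1 (0.965 and 0.956). For Sparc they were Calu and Htra1 (0.96 and 0.96) and for C1qtnf3 Dysf and Plaur (0.97 and 0.95). The least close matches were those of Spp1, Flrt2 and Grem1 (0.94 and 0.94), and of Postn, Edn1 and Mrc2 (0.93 and 0.92).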

How the data were processed

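RNA-seq values of 28 libraries in 14 groups of 2 were analysed, grouped by the sample labels. The score the authors deposited per gene and library is a whole number, read as TPM rounded down from its totals, so the authors had already normalized for length and library size. The submitters' processing notes list bcl2fastq, Bowtie2 2.2.5 and RSEM 1.3.0 and the builds mm10 and hg38, with no roles. The kit for libraries, the way RNA was extracted and the MEF medium are not the same in the labels and the methods. Of the gene identifiers, 99.6% are in GENCODE M21 (GRCm38), and all 10 matrix genes have the same position there.

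Values were compared as log2(value + 1) in limma 3.58.1 under R 4.3.3, using lmFit and then eBayes with trend set. The model had a term for each of the 14 groups and no block, and 13230 genes whose mean reached 1 entered it. Two-sided p-values were adjusted by the method of Benjamini and Hochberg over all of them, and a gene was called under 0.05. Fold changes on this scale understate those of low genes. The scripts were tested on simulated data. Near-identical genes (at least 95% identity over 200 nt) were sought with BLAST 2.17.0+, and plots were drawn with matplotlib 3.10.9.

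The members and all gene lists were chosen with earlier results of these data known. The rule for names was every member, for the other lists up to 4 called genes in order of the size of their difference, and for likeness the 2 genes (mean 5 or more) of highest correlation with each member. A gene that meets this rule is not reported here. The fits were repeated with quantile normalization, with a pseudocount of 0.1, with a minimum mean of 5 or none, on only the groups compared, with a replicate block, and without each library in turn. Same-numbered libraries of the groups of a day had deviations that correlated between -0.0159 and 0.0513 over genes.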

Additional observations from a re-analysis of the deposited data

Results flagged for a closer look

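These results were marked because the effect of the inhibitor, measured against DMSO, differed between day 1 and day 5 by a test of that difference itself (limma, adjusted p-value under 0.05). Groups of 2 libraries were not tested for outliers. All values are log2 differences, day 5 minus day 1.

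For p38i the effect moved up for Tnc by 1.40, Fbn1 by 0.72, Aebp1 by 0.71, Dcn by 0.57 and Fn1 by 0.56. For C1qtnf3 it was -1.97. Tnc was the gene of the set that was called lower in p38i on day 1 and higher on day 5.

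For pre-p38i the effect was -1.69 for Spp1, -1.49 for Aebp1, -1.24 for Dcn, -1.13 for Postn and -1.12 for Tnc. It was -0.94 for Lum, -0.39 for Sparc, -0.39 for Fbn1 and -0.24 for Fn1. Dcn was called higher in pre-p38i on day 1 and lower on day 5.

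Aebp1, Tnc, Fn1, Dcn, Fbn1 and C1qtnf3 were marked in p38i, and each of these but C1qtnf3 in pre-p38i as well, in the opposite direction. For Fn1 the pre-p38i mark was lost under most of the alternatives tried. For Fbn1 it was lost when only the groups compared were fitted (limma adjusted p = 0.0706). Both tests share the DMSO libraries of days 1 and 5.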

How the results depend on the processing

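Of 1580 values of single genes of the set under an alternative, 1494 kept their side of the threshold and did not reverse. Of the others, 73 lost the threshold without reversing, 10 gained it and 3 reversed. A difference of 0 was counted as not reversed. The reversed values were small and not called. C1qtnf3 in p38i against DMSO on day 1 went from -0.09 to 0.039 with quantile normalization, and leaving out 1 library gave -0.23 to 0.0498 (0.0498 without DMSO day 1 replicate 1). Postn in p38i against DMSO on day 7 went from 0.09 to -0.0481 without p38i day 7 replicate 2, and the range without 1 library was -0.0481 to 0.22.

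The number of the 10 genes called moved by over 1.5 times in 3 comparisons. When only the groups compared were fitted it went from 8 to 3 in p38i against DMSO on day 3, from 7 to 3 on day 5 and from 6 to 2 in pre-p38i against DMSO on day 1. Fewer libraries enter that fit. Leaving out 1 library gave 4 to 7 in the first of these.

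The all-gene counts behind the background shares moved more. The fit of only the groups compared called 904 of all genes in place of 2365 in MEF p38i against MEF. For p38i against DMSO on days 1, 3, 5 and 7 it called 853, 1044, 978 and 2749 in place of 2128, 2833, 3514 and 4509, and for pre-p38i 359, 753, 1254 and 2285 in place of 1539, 2729, 3387 and 3952. For the changes between days 1 and 5 it called 471 in place of 993 (p38i) and 877 in place of 1556 (pre-p38i). Without 1 library the count moved by over 1.5 times in 5 comparisons. It was 1515 and 1571 without MEF p38i replicates 1 and 2. For p38i on day 1 it was 1150 without DMSO day 1 replicate 1 and 1299 without p38i day 1 replicate 2. For pre-p38i on day 1 it was 894 and 874 without DMSO day 1 replicates 1 and 2, and 950 and 856 without pre-p38i day 1 replicates 1 and 2. For pre-p38i on day 3 it was 1698 without DMSO day 3 replicate 1, and 1568 and 1776 without pre-p38i day 3 replicates 1 and 2. For the p38i change it was 651 without DMSO day 1 replicate 1.

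Replicate numbers are shared by the groups but did not pair the libraries. With the replicate block 7 of the 10 genes were called in p38i against DMSO on day 3 (Tnc lost) and 8 in the pre-p38i change between days 1 and 5 (Fn1 lost), and the counts of the other comparisons did not move. C1qtnf3, at values of 0 to 6 after day 1, is limited by the rounding of the deposited values. Depth is unknown.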
